A study of Mus musculus with 6 samples.

Results

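Interferon response genes are the genes that cells switch on when they sense interferon or the nucleic acid of a virus. A list of 39 such genes was followed on arrays of mouse keratinocytes, and 37 of them had a probe with a matching RefSeq accession, out of 21368 genes named on the array. *Mx1* and *Mx2* had no matched probe and are not described. Each gene is given by its brightest probe unless another is named.

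The cells were primary keratinocytes from the back skin of newborn pups, grown for 3 passages on mouse J2 fibroblast feeders, which per the study's methods had been treated with mitomycin C, and then for at least 2 passages without feeders. Cells with a conditional knockout (cKO) of *Sox4*, of *Sox11* or of the pair (dcKO) were set against wild-type control cells, to ask how gene expression responds to loss of these SOXC transcription factors. The floxed alleles (Sox4 fl/fl, Sox11 fl/fl) were removed by Krt14-Cre, a recombinase driven by the keratin 14 promoter, which is active in basal cells of the epidermis. The strain label was 129SvEx:C57BL/6 for knockout and wild-type cells, while per the methods the Krt14-Cre line was FVB/N and the founder line also carried Sox12-/-, and whether the arrayed cells carried that allele is not stated. There were 2 arrays per genotype and 6 in all, each with knockout RNA in one dye and wild-type RNA in the other, and the dyes were swapped between replicates 1 and 2. The labels call the arrays biological replicates and do not say whether wild-type RNA was shared between arrays. If it was, the p-values rest on fewer independent samples than arrays.

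Type I and type III interferons bind receptors at the cell surface, whose JAK1 and TYK2 kinases activate STAT factors. A complex that holds STAT2 and IRF9 binds the interferon-stimulated response element (ISRE), while interferon gamma acts at the gamma-activated site (GAS), and IRF1 is a main target of that branch. The induced genes block virus entry, translation and genome copying, cut or tag viral and cellular molecules, and load peptides on MHC class I. Keratinocytes carry these receptors and sensors, and in skin the programme is known from virus infection, wounds and psoriasis.

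Sequence before the start sites of 6 members is shown with an ISRE or a GAS match for each. The members are genes the results turn on (*Irf1*, *Psmb8*, *Oas1a*), 2 central genes measured or dim in these cells (*Isg15*, *Ifit1*) and a near copy of *Oas1a*. The sequence was taken from the RefSeq promoter table (GRCm38.p6, 250 bases before to 50 bases after each start). It is written 5′ to 3′ on the strand of the gene. Capitals mark the motif, and the number of bases is counted from the start site to its first letter. ISRE was searched as GAAA followed, after any 2 bases, by a further GAAA, and GAS as TTCNNNGAA, on both strands and with overlapping matches allowed. 
Irf1 (GAS, -90, chr11:53769914-53769943, plus strand): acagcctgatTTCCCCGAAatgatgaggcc
Psmb8 (GAS, -97, chr17:34198088-34198117, plus strand): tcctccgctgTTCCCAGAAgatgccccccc
Oas1a (ISRE, -20, chr5:120907526-120907555, minus strand): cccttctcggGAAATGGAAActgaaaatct
Oas1g (ISRE, -18, chr5:120887612-120887641, minus strand): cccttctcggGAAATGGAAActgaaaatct
Isg15 (ISRE, -72, chr4:156200871-156200900, minus strand): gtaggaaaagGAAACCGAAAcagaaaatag
Ifit1 (ISRE, -85, chr19:34640794-34640823, plus strand): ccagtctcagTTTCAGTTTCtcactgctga
The windows of *Oas1a* and *Oas1g* were identical over 30 of 30 bases. These genes are similar copies, and the *Oas1a* probes may also bind *Oas1g* RNA. The *Oas1g* probes were above background in no channel, also where *Oas1a* was bright, so they showed no sign of binding *Oas1a* RNA. *Isg15* held 3 overlapping ISRE matches, and the second ISRE match of *Oas1a* overlapped the one shown.

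Of the 39 members, 31 had an entry in the promoter table, and 16 of these held an ISRE match (51.6%), against 3.99% of 27025 genes. A GAS match was found for 8 members (25.8%), against 9.55% of genes. ISRE matches were also found at *Stat2*, *Ifih1*, *Ddx58*, *Oas3*, *Ifit3*, *Eif2ak2*, *Rsad2*, *Bst2*, *Ifitm3*, *Gbp2*, *Gbp3* and *Cxcl10*, and GAS matches at *Oas1a*, *Ifit2*, *Eif2ak2*, *Bst2*, *Ifitm3* and *Ifi35*. A match of letters is a description of the window and not evidence of binding. The other members without an entry were *Dhx58*, *Oas2*, *Usp18*, *Rtp4*, *Parp14* and *Ccl5*.

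On each array between 50.9% and 59.2% of named genes were well above background in a channel, by the scanner software's own mark. The deleted genes were lower as labelled, with log2 knockout over wild type of -2.49 and -2.54 for *Sox4* in Sox4 cKO cells, -3.31 and -2.65 for *Sox11* in Sox11 cKO cells, and -2.23 and -2.81 (*Sox4*) and -3.07 and -3.79 (*Sox11*) in dcKO cells. All 10 keratinocyte markers examined, *Krt5* and *Krt14* included, were above background in every channel. Of 10 fibroblast markers *Col1a2* was above background in 11 channels, *Pdgfra* and *Dcn* in 1 channel each and the other 7, *Col1a1* and *Col3a1* included, in 0. Of 10 immune markers *Cd3e*, *Cd68* and *Itgam* were above background in all 12 channels, *Fcer1g* in 6 and *Ptprc* in 1, while *Lyz2*, *Cd207*, *Tyrobp* and *Laptm5* were in 0. In bulk RNA, fewer cells of a type and less RNA per cell cannot be told apart.

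On the Sox4 cKO and dcKO arrays most members were not well above background, with 12 to 18 of 37 above it in a channel. The Sox11 cKO arrays had more. Well above background in all 12 channels were 10 members (27.0%, against 47.5% of all named genes), namely the factors *Irf1*, *Irf9* and *Stat2*, the sensor *Ddx58*, and *Eif2ak2*, *Isg15*, *Trim25*, *Bst2*, *Ifitm3* and *Ifi35*. Another 6 members (16.2%, against 32.7% of genes) were above background in no channel. These were *Oas1g*, *Oas2*, *Ifit3*, *Cmpk2*, *Ifi44* and the chemokine gene *Cxcl10*, so their ratios describe background and no level. The remaining 21 were above background in some channels, and for them the array mattered.

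The array Sox11 cKO replicate 2 stood apart. Its knockout channel had 30 of 37 members above background and its wild-type channel 24, while the other 10 channels had between 12 and 21. The share of all named genes above background was 57.4% in each channel of that array, within the range of the others. Above background on that array alone were 8 members: *Irf7*, *Oasl1*, *Oasl2*, *Ifit1*, *Usp18*, *Herc6*, *Rsad2* and *Rtp4*. Without it, 23 members were above background in any channel instead of 31. The first Sox11 cKO array came next, with 20 members in its knockout channel and 21 in its wild-type channel, and *Xaf1*, whose protein promotes cell death, was above background by its brightest probe only on the 2 Sox11 cKO arrays. The summed level of the 10 immune markers (linear scale) was also highest on Sox11 cKO replicate 2, at 4150 in the wild-type channel and 3590 in the knockout channel, against 1990 to 2660 in the other 10 channels. The summed level of the 10 keratinocyte markers on that array was the highest of all in the wild-type channel, at 517000, and the lowest in the knockout channel, at 234000, against 265000 to 439000 in the other 10 channels. Of these markers *Perp* had a log2 ratio of -1.90 there, *Col17a1* of -1.62 and *Krt5* of -1.44. The others were smaller, with *Itgb4* at -0.70, *Lamb3* at -0.67, *Itga6* at -0.60 and *Krt14* at -0.48. *Dsp* was at -0.15, *Krt15* at -0.03 and *Trp63* at 0.32, so the markers did not fall together. The part of either marker list in the results was not tested.

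**Figure D1:**
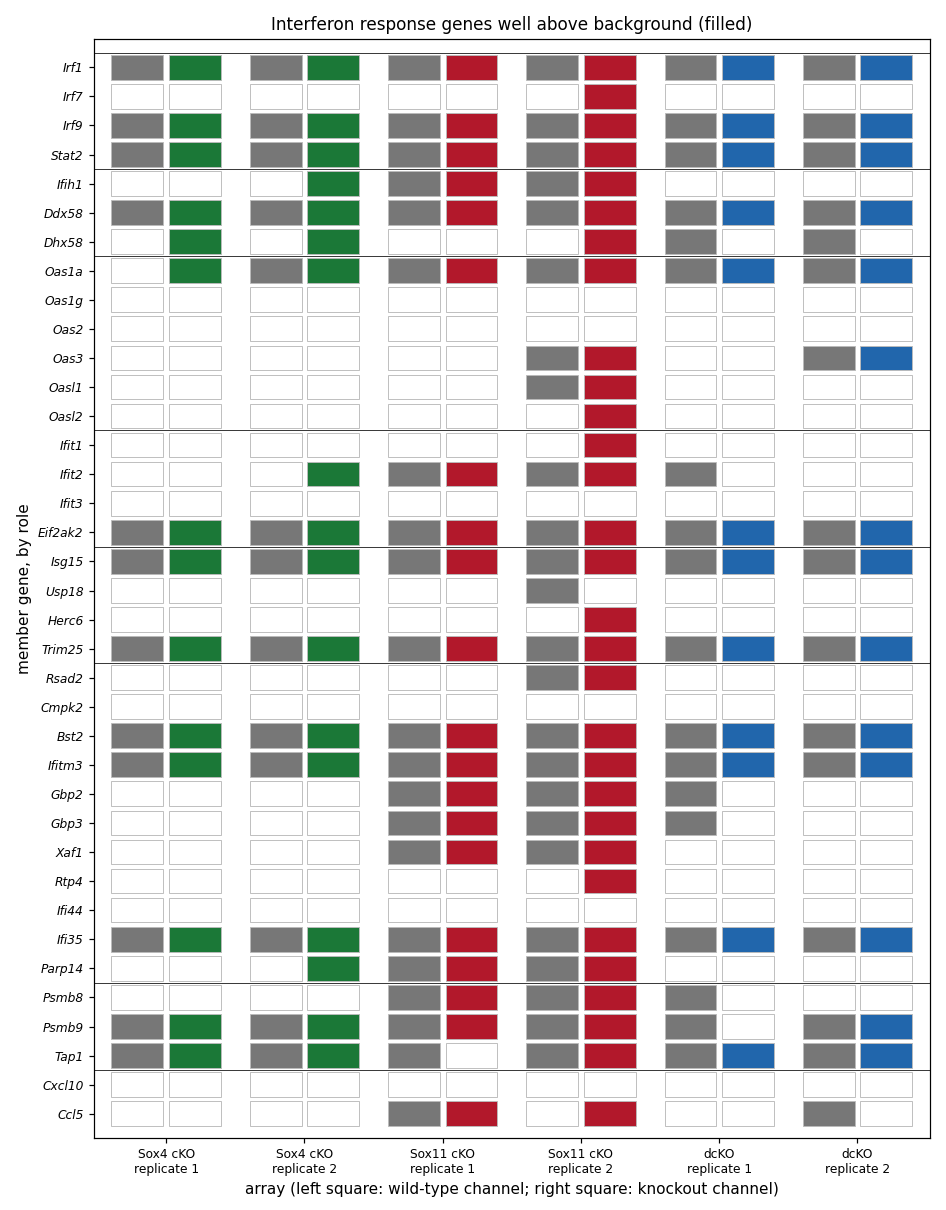
Each row is a member, ordered by role, and each pair of squares an array, with the wild-type channel on the left in grey and the knockout channel on the right in colour. A filled square means well above background. The column pair of Sox11 cKO replicate 2 is the fullest, with 24 and 30 filled squares, and 10 rows are filled throughout.

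**Figure D2:**
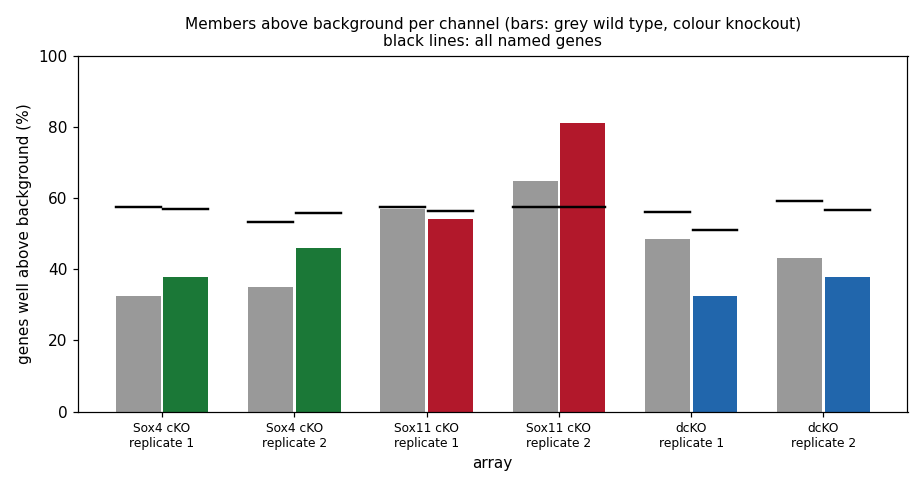
Bars give the percent of the 37 members well above background in each channel (grey, wild type; colour, knockout) on an axis from 0, and black lines give the same percent over all 21368 named genes. The bars run from 32.4% to 81.1% while the lines stay between 50.9% and 59.2%.

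Ratios below are log2 knockout over wild type, listed for replicate 1 and then replicate 2. They were tested with limma over all 55681 probes and called at an adjusted p below 0.05 with an absolute log2 change above 1.5. In Sox4 cKO cells 0 of 37 members were called (0.159% of genes), and 4 passed an unadjusted p of 0.05 (10.8%, beside 10.5% of genes). In Sox11 cKO cells 1 member was called higher and 0 lower (0.0374% of genes higher, 0.140% lower and 0.178% in all), and 12 passed the unadjusted threshold (32.4%, beside 10.7% of genes). In dcKO cells 1 member was called lower and 0 higher (0.833% of genes lower, 0.562% higher and 1.39% in all), with 10 at the unadjusted threshold (27.0%, beside 19.8% of genes). The member called higher was *Parp14* and the member called lower was *Irf1*. Without the fold threshold the counts stayed at 0, 1 and 1 (0.220%, 0.234% and 3.60% of genes in Sox4 cKO, Sox11 cKO and dcKO cells).

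The members as a group were higher in Sox11 cKO cells on average, more so on replicate 2, with medians nearer 0 in the other genotypes. Their median fitted log2 ratio was 0.36 in Sox11 cKO cells, 0.10 in Sox4 cKO cells and -0.01 in dcKO cells, beside medians of 0, 0 and -0.01 over all genes. Over members above background in a channel of the genotype, it was 0.52 (Sox11 cKO, 31 members), 0.28 (Sox4 cKO, 17) and 0.02 (dcKO, 20). Genes chosen likewise had medians of -0.01, 0.01 and -0.05. A member can enter that choice through a high knockout channel. Over all probes, the ratios of the 2 Sox11 cKO arrays correlated at -0.05, against 0.157 for Sox4 cKO and 0.483 for dcKO. Sox11 cKO replicate 2 correlated at 0.247 with Sox4 cKO replicate 2, which has the same dye order. The 2 Sox11 cKO arrays thus agreed little across the array. On both Sox11 cKO arrays 19 members were higher and 2 lower (22.3% and 22.8% of genes). The numbers were 16 higher and 8 lower in Sox4 cKO cells (25.9% and 25.4% of genes), and 10 higher and 9 lower in dcKO cells (28.4% and 32.0% of genes). The Sox11 cKO median was 0.16 on replicate 1 and 0.65 on replicate 2, and it was 0.08 in the fit without replicate 2 and 0.62 without replicate 1. Counted without overlap, both knockout levels lay above both wild-type levels for 12 members in Sox11 cKO cells and below for 2 (11.3% and 11.8% of genes), for 9 and 6 in Sox4 cKO cells (15.8% and 15.1%) and for 5 and 6 in dcKO cells (18.0% and 21.0%).

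**Figure D3:**
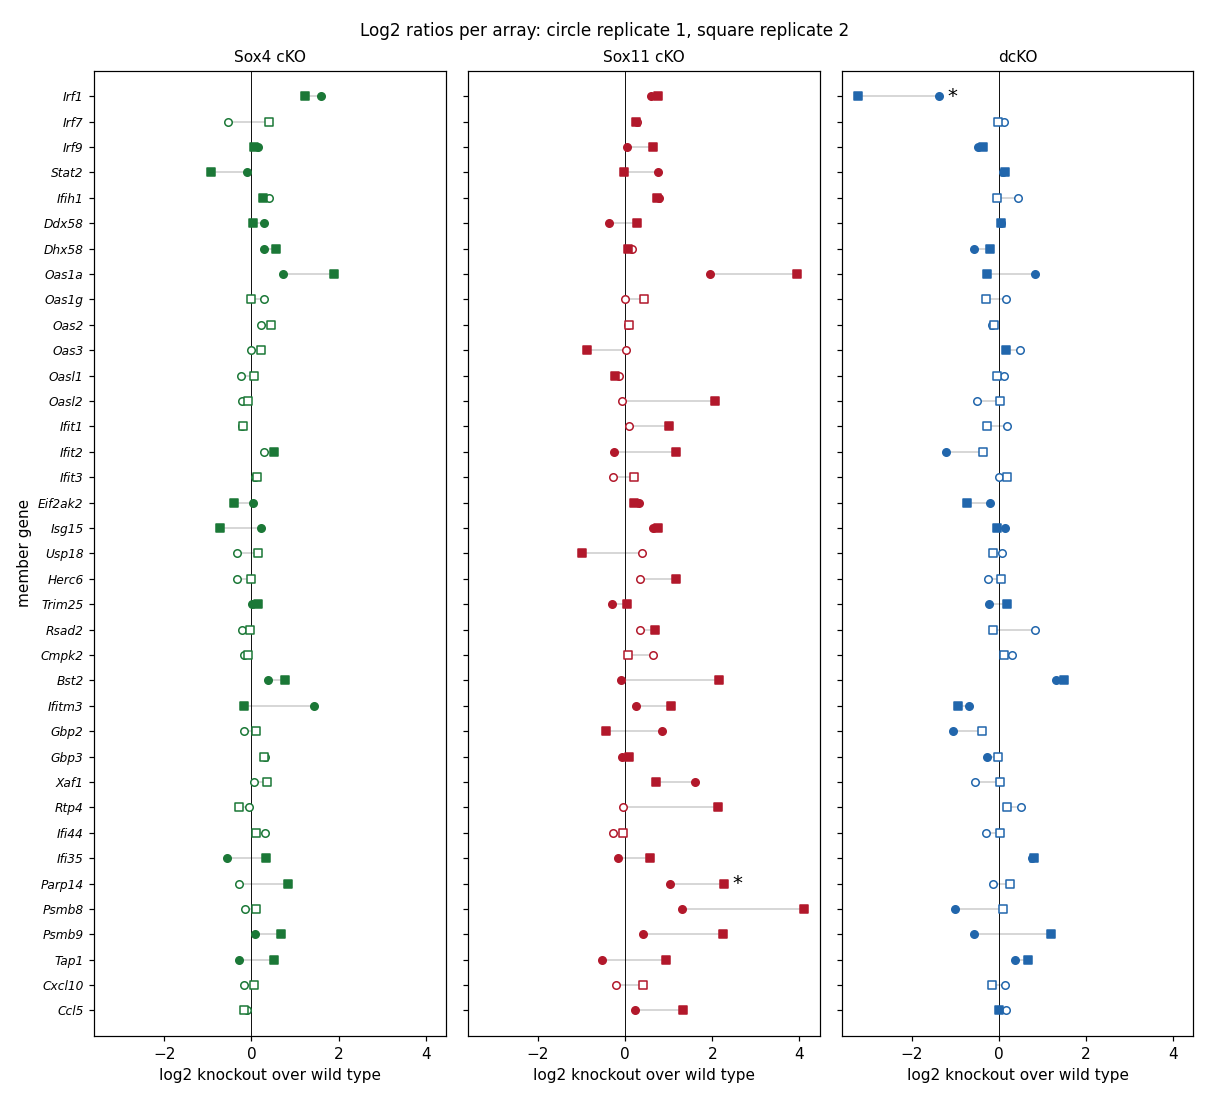
Log2 knockout over wild type of each member (rows) in the 3 genotypes, with circles for replicate 1 and squares for replicate 2. Open points were above background in neither channel, and an asterisk marks an adjusted p below 0.05 (limma). In Sox11 cKO cells the squares reach 4.10 (*Psmb8*) and 3.95 (*Oas1a*), farther right than their circles, and in dcKO cells the point pair farthest left is *Irf1*.

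Of the transcription factors of the response, *Irf1* passed the test, in dcKO cells. *Irf1* encodes a factor that binds interferon-responsive promoters and is itself induced by interferon gamma. Its log2 ratio was 1.59 and 1.22 in Sox4 cKO cells, 0.60 and 0.76 in Sox11 cKO cells, and -1.38 and -3.24 in dcKO cells. It was thus higher than wild type on all 4 single-knockout arrays and lower on both dcKO arrays. In dcKO cells *Irf1* fell by 2.31 on the log2 scale (SD 1.31, n = 2; SE 0.31; limma adjusted p = 0.015). The single knockouts missed the threshold, with 1.40 ± 0.26 for Sox4 cKO (SD, n = 2; limma adjusted p = 0.277) and 0.68 ± 0.11 for Sox11 cKO (SD, n = 2; limma adjusted p = 0.757). The differences between genotypes were tested in the same model. The dcKO ratio was below the Sox4 cKO ratio by a log2 difference of -3.71 (limma adjusted p = 0.0216) and below the Sox11 cKO ratio by -2.99 (limma adjusted p = 0.0444). In these 2 contrasts 1 member, *Irf1*, was called (1.03% and 0.786% of genes, of which 0.590% and 0.374% lower), and 0 were called between Sox11 cKO and Sox4 cKO cells (0.0187% of genes), where 10 members passed an unadjusted p of 0.05 (27.0%, beside 9.50% of genes).

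The levels behind the *Irf1* ratios varied widely between arrays, in the wild-type channels too. Levels here are log2 intensities of a channel after loess and between-array scaling, they remain open to dye bias, and they are compared only within a gene. In the wild-type channels *Irf1* stood at 7.05 and 7.90 on the Sox4 cKO arrays, 10.71 and 11.40 on the Sox11 cKO arrays and 11.22 and 9.65 on the dcKO arrays. The knockout channels read 8.64 and 9.11, 11.31 and 12.16, and 9.84 and 6.42 in the same order. The dcKO levels overlapped with the wild-type levels of those arrays, since 9.84 lies above 9.65, and only the level 6.42 lay below all 6 wild-type channels. Without dcKO replicate 2 the value was -1.43 (limma adjusted p = 0.149), and an offset of 50 in the background correction gave -2.07 (limma adjusted p = 0.0811). The difference from Sox4 cKO cells missed the threshold without Sox4 cKO replicate 1 or 2 (limma adjusted p = 0.121 and 0.139), and that from Sox11 cKO cells without either Sox4 cKO array (limma adjusted p = 0.0661 for each) and without dcKO replicate 2 (-2.11, limma adjusted p = 0.147). Without the replicate block the differences had a limma adjusted p of 0.0564 and 0.115. The other *Irf1* probe was above background in no channel and gives no check.

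*Irf9* and *Stat2*, which belong to the ISRE-binding complex, did not pass the test in any genotype. The *Irf9* ratios were 0.15 and 0.06, 0.04 and 0.65, and -0.47 and -0.37, and those of *Stat2* were -0.09 and -0.92, 0.75 and -0.03, and 0.10 and 0.14 (Sox4 cKO, Sox11 cKO, dcKO). *Irf9* was lower on both dcKO arrays, by 0.42 on average, and did not pass the test (limma adjusted p = 0.35). *Irf7*, the factor that amplifies type I interferon production, was above background only in the knockout channel of Sox11 cKO replicate 2, where the mean over that genotype was at least 1.20-fold higher. Its ratios there were 0.27 and 0.24, and in the other genotypes -0.53 and 0.41 (Sox4 cKO) and 0.13 and -0.02 (dcKO), all at background. An "at least" fold sets the brighter group's mean level over both arrays against the lowest signal that counts as above background, or the dim probe's own where that was higher.

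None of the cytoplasmic RNA sensors passed the adjusted threshold in a genotype. *Ddx58* encodes RIG-I, and its fitted ratios lay between -0.05 and 0.16 in the 3 genotypes. *Ifih1*, which encodes MDA5, a sensor of long double-stranded RNA, gave 0.40 and 0.27, 0.78 and 0.73, and 0.43 and -0.04. The Sox11 cKO value was 0.76 ± 0.04 (SD, n = 2; limma adjusted p = 0.197), with levels of 7.41 and 7.90 against 6.63 and 7.16 in wild type, which overlap. All 4 of these levels lay above the highest of the other wild-type channels, 5.57. *Dhx58*, the third member of that helicase family, gave 0.28 and 0.56, 0.16 and 0.06, and -0.58 and -0.21, with the knockout channel above background only in Sox4 cKO cells and Sox11 cKO replicate 2 and the wild-type channel only on the dcKO arrays. Its means were at least 1.20-fold higher in Sox4 cKO cells (limma adjusted p = 0.606) and at least 1.1-fold lower in dcKO cells (limma adjusted p = 0.328).

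The oligoadenylate synthetases make the messenger that activates RNase L, and *Oas1a* was the member of this family that could be measured on nearly every array. Its log2 ratios were 0.72 and 1.89 in Sox4 cKO cells, 1.94 and 3.95 in Sox11 cKO cells and 0.84 and -0.26 in dcKO cells. The Sox11 cKO knockout levels were 8.77 and 10.65 and the wild-type levels 6.83 and 6.70, with no overlap. The fitted change of 2.94 ± 1.42 (SD, n = 2; 95% interval 1.91 to 3.98) did not pass the adjusted threshold (limma adjusted p = 0.0945), nor did 1.30 ± 0.83 in Sox4 cKO cells (SD, n = 2; limma adjusted p = 0.559). It passed without either dcKO array (2.94, limma adjusted p = 0.0164 for each) and without Sox11 cKO replicate 1 (3.93, limma adjusted p = 0.00147), where the genotype rests on 1 array that is assumed to vary like the others. The other *Oas1a* probe gave 0.96 and 2.19 in Sox11 cKO cells (limma adjusted p = 0.0945). *Oasl2* was above background only in the knockout channel of Sox11 cKO replicate 2, where its level was 6.90, and its mean was at least 1.93-fold higher (limma adjusted p = 0.483). Its ratios were -0.07 and 2.07, so the value without replicate 1 (1.90, limma adjusted p = 0.0032) rests on that 1 channel. *Oas3* was above background in 4 channels, and on Sox11 cKO replicate 2 it was lower in the knockout channel, at 6.07 against 6.94. *Oasl1* stayed within 0.24 of 0 on every array, and *Oas1g* and *Oas2* were never above background.

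Among the genes that block translation and bind viral RNA, the PKR gene *Eif2ak2* was measured throughout. Its log2 ratios were 0.04 and -0.40, 0.32 and 0.21, and -0.20 and -0.74, and the dcKO mean of -0.47 did not pass the test (limma adjusted p = 0.221). *Ifit1*, which binds RNA that lacks the host's cap methylation, gave -0.22 and -0.20, 0.08 and 1.00, and 0.19 and -0.28, and only the value 1.00 came from a channel above background. The *Ifit1* mean in Sox11 cKO cells was at least 1.38-fold higher (limma adjusted p = 0.732). *Ifit2* was above background in 6 channels. On the dcKO arrays its ratios were -1.22 and -0.36, and it was above background only in the wild-type channel of replicate 1. Its dcKO mean was at least 1.63-fold lower (limma adjusted p = 0.131), which rests on that 1 channel.

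The ISG15 system tags proteins with a ubiquitin-like modifier. *Isg15*, the modifier itself, gave 0.22 and -0.73 in Sox4 cKO cells, 0.64 and 0.75 in Sox11 cKO cells and 0.15 and -0.04 in dcKO cells, with the Sox11 cKO value at 0.69 ± 0.07 (SD, n = 2; limma adjusted p = 0.435). Its levels on Sox11 cKO replicate 2 were 8.86 (knockout) and 8.12 (wild type), above the 6.05 to 7.14 of the other 10 channels. *Usp18*, which removes ISG15 and dampens receptor signalling, was above background in the wild-type channel of that array alone. Its ratios were -0.32 and 0.16, 0.38 and -0.98, and 0.08 and -0.13. *Herc6*, a ligase for ISG15 in mice, was above background only in the knockout channel of the same array, with a Sox11 cKO mean at least 1.65-fold higher (limma adjusted p = 0.229). *Trim25*, the ligase that activates RIG-I, kept fitted ratios between -0.13 and 0.09.

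*Parp14*, an ADP-ribosyltransferase of the antiviral response, was the member called higher in Sox11 cKO cells. Its log2 ratios were -0.29 and 0.85 in Sox4 cKO cells, 1.02 and 2.27 in Sox11 cKO cells and -0.14 and 0.26 in dcKO cells. The Sox11 cKO knockout levels were 7.11 and 8.83, above the wild-type levels of 6.10 and 6.56 on those arrays and above the 4.71 to 6.24 of the other 8 channels. It rose by 1.64 ± 0.89 (SD, n = 2; SE 0.19; limma adjusted p = 0.0368), 0.14 above the fold threshold. The call was lost without Sox11 cKO replicate 2 (1.40, limma adjusted p = 0.0992) and without either Sox4 cKO array (1.64, limma adjusted p = 0.0684 for each), and the dcKO ratio did not differ from it at the threshold (log2 difference -1.58, limma adjusted p = 0.0627). An offset of 50 (1.36, limma adjusted p = 0.313) and a fit without the replicate block, which here is the dye term (1.64, limma adjusted p = 0.387), also ended the call.

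*Bst2* encodes tetherin, which holds budding virus at the cell surface. It gave 0.39 and 0.77 in Sox4 cKO cells, -0.09 and 2.16 in Sox11 cKO cells and 1.32 and 1.49 in dcKO cells, and was above background in all channels. In dcKO cells the knockout levels of 9.63 and 9.06 lay above the wild-type levels of 8.30 and 7.57. The change of 1.41 ± 0.12 (SD, n = 2; 95% interval 0.63 to 2.18) missed the threshold (limma adjusted p = 0.0922). In the fit without Sox11 cKO replicate 1 the Sox11 cKO change was 2.02, which rests on 1 array of that genotype and a dye term from the others. *Ifi35* gave 0.75 and 0.80 in dcKO cells (limma adjusted p = 0.0937), after -0.56 and 0.34 in Sox4 cKO and -0.17 and 0.57 in Sox11 cKO cells. *Ifitm3*, which blocks virus fusion in endosomes, was lower on both dcKO arrays, at -0.69 and -0.94 (limma adjusted p = 0.383), and gave 1.43 and -0.18 in Sox4 cKO and 0.24 and 1.06 in Sox11 cKO cells. In dcKO cells the first pair was thus higher and *Ifitm3* lower on both arrays.

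The brightest *Xaf1* probe varied between arrays in both channels. Its log2 ratios were 0.06 and 0.35, 1.61 and 0.71, and -0.55 and 0.03. The levels on the Sox11 cKO arrays were 7.97 and 9.76 in the knockout channels and 6.36 and 9.05 in the wild-type channels, which overlap, while the other 8 channels read 4.4 to 5.0 and none was above background. The Sox11 cKO change was 1.16 ± 0.64 (SD, n = 2; limma adjusted p = 0.233), and without replicate 2 it was 1.82 (limma adjusted p = 0.0159). The other *Xaf1* probe was above background in 6 channels, so also outside the Sox11 cKO arrays, and gave 0.23 and -0.03, 0.75 and 0.36 (Sox11 cKO limma adjusted p = 0.4), and 0.34 and 0.39. *Rtp4*, above background in 1 channel, had a level of 7.30 in the knockout channel of Sox11 cKO replicate 2 and a mean at least 2.01-fold higher in that genotype (limma adjusted p = 0.642). Its ratios were -0.04 and 2.14, so the value without replicate 1 (2.27, limma adjusted p = 0.000792) rests on that 1 channel. The guanylate-binding proteins *Gbp2* and *Gbp3* were above background in all 4 channels of the Sox11 cKO arrays and in 1 further channel, the wild type of dcKO replicate 1. In dcKO cells their means were at least 1.54-fold lower (limma adjusted p = 0.371) and 1.05-fold lower (limma adjusted p = 0.785). *Rsad2*, the gene of viperin, gave 0.35 and 0.69 in Sox11 cKO cells and was above background in both channels of replicate 2 only, and *Cmpk2* and *Ifi44* were dim throughout.

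**Figure D4:**
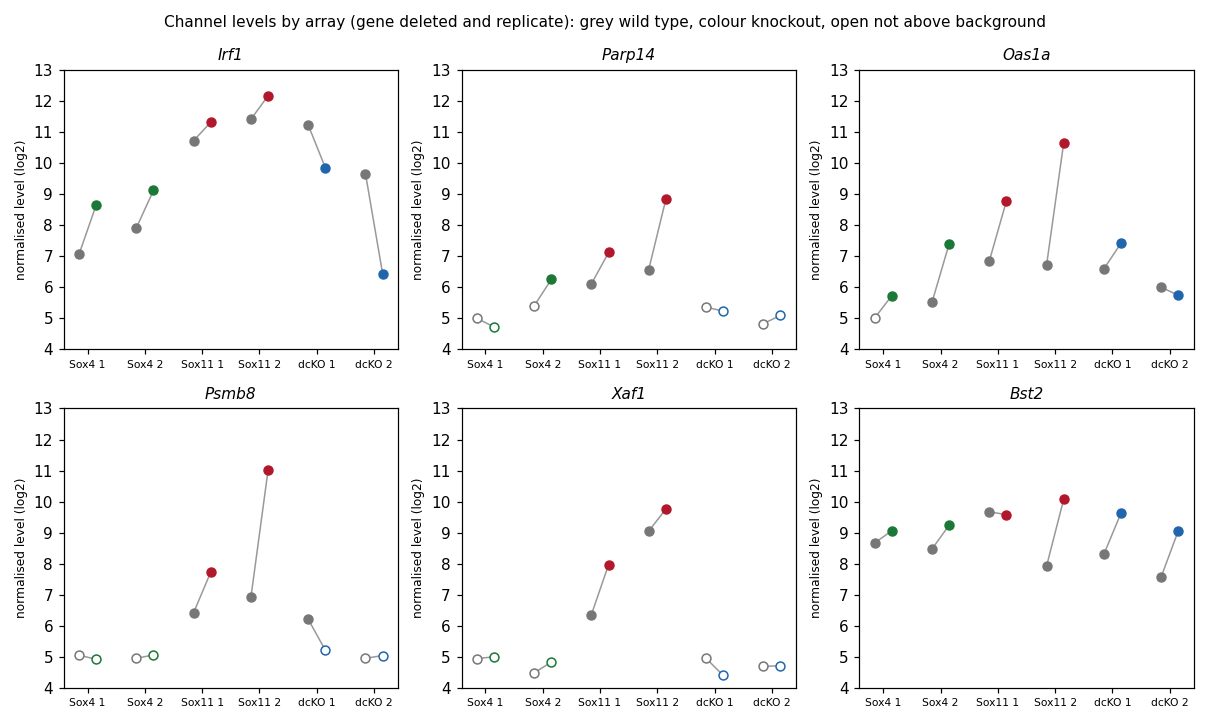
Normalised log2 level (vertical axis) of 6 members in the wild-type channel (grey) and knockout channel (colour) of each array, joined by a line, with open points for channels not well above background. Panels share an axis range and are not to be compared with each other. For *Irf1* the lines fall on both dcKO arrays. For *Psmb8* and *Oas1a* the steepest rise is on Sox11 cKO replicate 2.

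Antigen processing held the largest ratio of any member. *Psmb8*, a catalytic subunit of the immunoproteasome, gave -0.14 and 0.11 in Sox4 cKO cells, 1.31 and 4.10 in Sox11 cKO cells and -1.0 and 0.09 in dcKO cells. Its knockout levels in Sox11 cKO cells, 7.73 and 11.01, lay above the wild-type levels of 6.42 and 6.91. The fitted change of 2.71 ± 1.98 (SD, n = 2; 95% interval 1.85 to 3.56, which holds neither array's ratio) missed the adjusted threshold (limma adjusted p = 0.0712). It passed without either Sox4 cKO array (2.71, limma adjusted p = 0.0477 for each) and without Sox11 cKO replicate 1 (3.77, limma adjusted p = 8.47e-05), and without Sox11 cKO replicate 2 it was 1.64 (limma adjusted p = 0.0528). *Psmb9*, which encodes another such subunit and is its neighbour in the MHC region, gave 0.08 and 0.68, 0.42 and 2.24, and -0.58 and 1.19 (Sox11 cKO limma adjusted p = 0.134). The *Psmb9* change in Sox11 cKO cells was 1.65 in the fit without Sox11 cKO replicate 1, which leaves 1 array of that genotype. *Tap1*, the peptide transporter, gave -0.28 and 0.52, -0.52 and 0.93, and 0.36 and 0.68 (dcKO limma adjusted p = 0.327). On Sox11 cKO replicate 2 all 3 genes were higher in the knockout channel, by 0.93 to 4.10, and on replicate 1 the values were -0.52 to 1.31. Of the chemokines, *Ccl5* gave -0.09 and -0.18, 0.22 and 1.33, and 0.16 and 0.01 (Sox11 cKO limma adjusted p = 0.467), and *Cxcl10* was dim.

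The Sox11 cKO arrays also stood high in their wild-type channels. For 10 of 37 members (27.0%) the wild-type levels of both Sox11 cKO arrays lay above those of all 4 other arrays, against 7.40% of genes. These were *Stat2*, *Ifih1*, *Oas1a*, *Oas2*, *Oasl1*, *Gbp2*, *Gbp3*, *Xaf1*, *Parp14* and *Psmb8*. Of these, *Oas2* was never above background and *Oasl1* only on Sox11 cKO replicate 2. This pair also had the most members above background in the same channels, so the count is not independent of that. The same count is not given for the other pairs of arrays. In the knockout channels the same held for 17 members (45.9%), against 8.66% of genes. The median difference between the Sox11 cKO arrays and the others was 0.36 over members in the wild-type channels and 0.65 in the knockout channels, beside -0.01 and 0 over genes. A set of cultures and a genotype cannot be told apart in the knockout channels, because each genotype had its own pair of arrays.

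The rest of the pathway was followed through 88 further genes with a probe. Of these, 54 were above background in all 12 channels and 10 in none. Of 9 ligand genes, those of interferon beta, kappa, epsilon and gamma (*Ifnb1*, *Ifnk*, *Ifne*, *Ifng*) and *Ifna4* were above background in no channel. The probe of *Ifnl3*, an interferon lambda, was above background in all 12 channels, and those of *Ifna1*, *Ifna5* and *Ifna2* in 10, 6 and 2. The interferon alpha genes are near-identical copies, so their probes may bind RNA of one another. The log2 ratios of *Ifnl3* were -0.01 and -0.61, 0.46 and -0.14, and -0.50 and -0.39, and it did not pass in any genotype (limma adjusted p = 0.77, 0.973 and 0.34). The receptor genes *Ifnar1*, *Ifnar2*, *Ifngr1*, *Ifngr2*, *Ifnlr1* and *Il10rb* and the kinase genes *Jak1* and *Tyk2* were above background in every channel. Of the receptors, *Ifngr2* passed the test, with ratios of -0.82 and -1.45 in dcKO cells (limma adjusted p = 0.0441), below the fold threshold. *Ifnar1* and *Ifnar2* gave -0.90 and -0.48, and -0.34 and -0.88 there (limma adjusted p = 0.114 and 0.109).

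Among the 88 genes 0 were called in Sox4 cKO cells (0.159% of genes), 1 higher in Sox11 cKO cells (0.0374%) and 1 higher in dcKO cells (0.562%). At an unadjusted p of 0.05 they numbered 16, 30 and 30 (18.2%, 34.1% and 34.1%, beside 10.5%, 10.7% and 19.8% of genes). In dcKO minus Sox11 cKO 2 were called lower (0.374% of genes), *Sting1* by a log2 difference of -2.18 (limma adjusted p = 0.0312) and *Zbp1* by -1.69 (limma adjusted p = 0.0339), and *Dtx3l* passed below the fold threshold (-1.36, limma adjusted p = 0.0461). In Sox11 cKO cells *Sting1*, the adaptor of DNA sensing, rose by 1.85 (ratios 1.38 and 2.32; limma adjusted p = 0.0327), a call lost without Sox11 cKO replicate 2 (1.43, limma adjusted p = 0.0677) or either dcKO array (1.85, limma adjusted p = 0.0712 for each). Below the fold threshold, *Tap2* (1.47) and *Uba7* (1.34), the peptide transporter partner of TAP1 and the activating enzyme for ISG15, passed at a limma adjusted p of 0.0327 each, and the nucleic acid sensor *Zbp1* (1.38) at 0.0414. In dcKO cells *Tap2* rose by 1.65 (ratios 1.24 and 2.06; limma adjusted p = 0.00508), a call lost without dcKO replicate 1 (1.45, limma adjusted p = 0.127) or replicate 2 (1.85, limma adjusted p = 0.0715), while *Ifi27* (1.45, limma adjusted p = 0.0337) and *Isg20* (0.85, limma adjusted p = 0.0395) passed below the fold threshold. *Tap2* was higher on all 6 arrays, with 0.25 and 1.31 in Sox4 cKO cells (limma adjusted p = 0.229), and so was *Ifi27*, with 1.26 and 1.29 there (limma adjusted p = 0.194). The wild-type levels of *Sting1* and *Zbp1*, like those of the members, differed between arrays, with *Zbp1* above background on the Sox11 cKO arrays and in the wild-type channel of dcKO replicate 1 alone.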

How the data were processed

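Members and gene lists were chosen with earlier results of these data known. The deposited scanner files hold intensity values on a linear scale, which the authors obtained in Feature Extraction 11.0.1.1 (per the submitters' processing notes), together with processed intensity values and marks for spots above background or outlying. The authors also deposited log2 ratios of the same arrays, used as an alternative only. These correlated with knockout over wild type at 0.890 to 0.952, which set their direction, and column medians lay between -0.007 and 0.005.

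Median spot signals were corrected for median background by normexp (offset 16) and normalised by loess, with limma 3.58.1 run under R 4.3.3. From 62976 spots, 3671 control spots and 194 to 288 outlier-marked spots per array were left out, which gave 55681 probes. RefSeq accessions named 28331 probes (95.1% of 29786 with an accession, table for GRCm38.p6). The array was designed on mm9, so no position comes from it. A linear model with 3 genotype effects and a dye effect was fitted over all 6 arrays with 2 residual and 5.37 prior degrees of freedom, and p-values were adjusted by Benjamini-Hochberg over all probes. The dye effect equals a block on the replicate number. Deviations of equally numbered arrays correlated at 0.316, 0.244 and 0.125, and number and dye cannot be told apart. The model was tested on simulated data. All arrays came from 1 slide and 1 scan. Precision is limited by the number of arrays, 2 for each genotype.

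Values on every array are given for members at an adjusted p below 0.05, for the 6 members per genotype with the largest mean ratio of equal sign on both arrays and above background on each, and for *Irf1*, *Irf7*, *Irf9*, *Stat2*, *Isg15*, *Usp18*, *Ifit1* and *Ifih1*. Named from the pathway list are receptors, *Jak1*, *Tyk2*, genes at an adjusted p below 0.05 and, after their values were seen, the 9 ligands. Some listed genes are not reported here. Marker lists for melanocytes and endothelium were also examined: *Mlana* and *Pmel* were above background in 11 channels, *Tyr* in 8 and *Dct*, *Tyrp1* and *Kit* in 0, and *Kdr* in 12, *Pecam1* in 5, *Tie1* in 2 and *Cdh5* in 0.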

Additional observations from a re-analysis of the deposited data

Results flagged for a closer look

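In the wild-type channels, 26 members were above background in at least 1 channel and their 6 levels were tested for a value far from the rest (Dixon's test), where chance marks about 1 in 20. For 5 of them the wild-type level on Sox11 cKO replicate 2 stood apart. *Stat2* was at 8.93 there, against 7.24 to 7.79 on the other 5 arrays, and *Oas3* at 6.94 against 4.70 to 5.25. *Usp18* was at 6.16 against 4.84 to 5.26, *Rsad2* at 5.60 against 4.79 to 4.95 and *Tap1* at 6.37 against 5.84 to 5.94. The gap to the next array was 0.676 of the range for *Stat2*, 0.753 for *Oas3*, 0.686 for *Usp18*, 0.800 for *Rsad2* and 0.807 for *Tap1*, each above Dixon's 95% limit for 6 values. *Usp18* and *Rsad2* were above background in no other wild-type channel and entered the test through this one, so for them the values are a description. The flags share 1 channel of 1 array and are not 5 independent events. The share of all named genes that this test would flag on that channel is not given here. The count is therefore not read as a trait of the members.

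The effect on *Irf1* differed between genotypes by a test of the difference itself, at -3.71 for dcKO minus Sox4 cKO and -2.99 for dcKO minus Sox11 cKO on the log2 scale (limma adjusted p = 0.0216 and 0.0444). Over the alternatives the limma adjusted p of *Irf1* ran from 0.000225 to 0.324 for the first difference and from 0.000884 to 0.391 for the second, and the dcKO ratio was the lower in every alternative run.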

How the results depend on the processing

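Each alternative changed 1 choice, except that the fits on a genotype's own arrays also had no replicate block. An offset of 50 or the scanner software's processed signals left 0 members called in Sox11 cKO, dcKO and both differences from dcKO, and 0 at an adjusted p below 0.05 in each genotype. In Sox11 cKO cells 0 were called, and 0 passed the adjusted p alone, with the dye effect subtracted before the fit, with probes above background in 1 channel on 3 arrays only (which leaves 21 members) and with that genotype's own arrays. The authors' table and median centring each gave 3 (*Oas1a*, *Parp14*, *Psmb8*), by call or by adjusted p alone, and 3 in dcKO minus Sox11 cKO, where the filter on dim probes gave 0. Median centring gave 2 in dcKO minus Sox4 cKO. At the adjusted p alone, dcKO cells had 3 with the authors' table, 5 with median centring and 4 with their own arrays, and Sox4 cKO cells had 2 with their own arrays. The Sox4 cKO median was 0.16 with the filter. The dcKO median was 0.13 with processed signals, 0.05 with median centring and with the filter, and 0.04 as a mean over probes. Median centring moved the median of all genes in dcKO cells from -0.01 to -0.09.

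Without the replicate block (no dye term), 0 members were called in Sox11 cKO, dcKO minus Sox4 cKO and dcKO minus Sox11 cKO, and *Irf1* in dcKO kept its call (-2.31, limma adjusted p = 0.0387). Leaving out 1 array at a time gave 1 to 7 members called in Sox11 cKO (1 to 8 by adjusted p, median 0.08 to 0.62), 0 to 1 in dcKO (0 to 5, median -0.17 to 0.06), 0 to 1 by adjusted p in Sox4 cKO (median 0.01 to 0.21), 0 to 1 in dcKO minus Sox4 cKO, 0 to 8 in dcKO minus Sox11 cKO and 0 to 5 in Sox11 cKO minus Sox4 cKO. The 7 arose without Sox11 cKO replicate 1, while without replicate 2 the call was *Xaf1*. Without Sox11 cKO replicate 1 or 2, 1 member passed the adjusted p in Sox4 cKO and 5 in dcKO cells.

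For *Parp14* in Sox11 cKO cells the limma adjusted p was 0.313 (log2 1.36) with an offset of 50, 0.64 (2.01) with processed signals, 0.387 without the block, 0.0507 with the dye subtracted, 0.0771 with the filter and 0.871 on its own arrays without the block. For *Irf1* in dcKO cells, processed signals gave -2.59 (limma adjusted p = 0.239).

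The same alternatives were added for the pathway genes after seeing the data. In Sox11 cKO cells 0 were called with an offset of 50, processed signals, no block, the dye subtracted, the filter or own arrays, 2 with the authors' table and 0 to 15 with 1 array left out. In dcKO cells 0 were called with an offset of 50, processed signals or no block, 3 with median centring, 2 with own arrays and 0 to 2 with 1 array left out.

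Of 62 values of named members under 931 alternatives, 36 differed in sign from the reported value, and none of the reported values among them was called. Mean spot signals and a block on the slide were not run, the latter because all arrays share 1 slide. Signal near background limits 27 of 37 members, which were dim in at least 1 channel.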
